A study of Mus musculus with 12 samples.

Results

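T cells from MC38 tumours, a mouse colorectal cancer line, were compared 24 h after a single 12 Gy dose of radiation to the tumour (RT D1) with T cells from tumours that received none (NT D1). A cell belonged to the comparison when its top hashtag had at least 20 unique molecular identifiers (UMIs) and 3 times the next, and was an RT-D1 or NT-D1 hashtag, red or green. Cells under 500 genes or over 10% mitochondrial UMIs were left out. Of 2740 cells kept in the series, 1463 met this rule, 699 from RT D1 and 764 from NT D1. Of 1512 barcodes with a day 1 top hashtag, 49 failed these rules.

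Tumours of both groups grew in mice of genotype Kaedehet, which carry the photoconvertible protein Kaede. In both groups the tumour-draining lymph node was exposed to 405 nm light for 5 min on day 14, just before the tumour of the RT D1 mice was irradiated, and tumours were collected on day 15. Each group had 2 replicates, each a pool of 4 tumours, and every pool gave 1 green and 1 red hashed sample. Replicate 1 of both groups shared well 1 of the 10x chip with NT D3 (no radiation, collected at 72 h), and replicate 2 of both shared well 3. Cells were enriched with CD4/CD8 beads and sorted as live CD90.2+ cells of 1 colour, so class and colour shares describe the sorted cells and not the tumour. The age of the mice is not given in the sources used here.

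Ionising radiation breaks DNA, and checkpoint kinases that sense the breaks stabilise p53. This transcription factor induces the cell cycle inhibitor p21 (Cdkn1a), pro-apoptotic members of the BCL2 family and its own inhibitor Mdm2. Lymphocytes are among the most radiation-sensitive cells. DNA and RNA that leak into the cytosol after damage can also start the type I interferon response, in which interferon-stimulated response elements (ISRE) in the promoters of its genes are bound. Genes of mitosis are silenced through the cell cycle homology region (CHR) of their promoters when p21 stops the cycle. Kaede turns from green to red under violet light, so a red cell in the tumour had been in the illuminated node.

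Hashtags separated the cells clearly, with a median of 7458 UMIs for the top hashtag and 3 for the next, and 0 barcodes were shared between wells. Pools held 178 and 521 cells in RT D1 and 221 and 543 in NT D1, with 4003794 and 11202484 UMIs in RT D1 and 5803380 and 13456449 in NT D1. Median UMIs per cell were 20818.5 and 19408 in RT D1 and 23606 and 22135 in NT D1. Replicate 1 of RT D1 stood apart from the other pools. Red cells made up 80.3% of it, against 55.9% of RT D1 replicate 2 and 59.3% of each NT D1 pool, and its green hashed sample held 35 cells. Calls lost without this pool are given with each gene group. Tumour pools are the unit of the tests, except that the tests by colour took the red and the green sum of a pool as separate samples, with no term for the pool they share. The other p-values measure the spread between pools, and with 2 pools a group the smallest 2-sided exact permutation p is 0.333. By that test, pools that do not overlap between groups have this p, so lack of overlap alone does not show a difference. The share of all genes tested whose pools do not overlap is not given here. In summed counts, fewer cells of a kind and less RNA per cell cannot be told apart.

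The labels and the matrices disagree on colour. The sequence named red in the matrix of 1 replicate is named green in that of the other, while the labels give a tag the same number in both. The 15-base RT D1 hashtags are shown because the colour of every cell rests on them.
RT-D1_Red in replicate 1: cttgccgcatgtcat
RT-D1_Green in replicate 1: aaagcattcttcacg
RT-D1_Red in replicate 2: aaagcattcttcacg
RT-D1_Green in replicate 2: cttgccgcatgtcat
The NT D1 hashtags were exchanged in the same way. Colours below follow the matrices' names, and sums over both colours of a pool do not depend on them.

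Cells were classed by clustering and by markers. The same markers are counted below, so the counts describe the classes and do not test their names. Levels below are CPM, UMIs scaled to the same total. Those of class markers are over all day 1 cells of a class, and the others are per pool. Of the markers fixed for the classes, 10 of 11 were higher in CD8-like cells than in other cells, 12 of 12 in Treg-like, 11 of 12 in CD4 conventional-like, 11 of 12 in naive CD8-like and 10 of 10 in naive CD4-like cells. The exceptions were Gzmb in CD8-like cells (1212 against 1218 CPM in other cells), Cd200 in CD4 conventional-like cells (29.5 against 33.9) and Cd8a in naive CD8-like cells (395 against 647). Cd8a stood at 1072 CPM in CD8-like cells and 133 in other cells, and Foxp3, the regulatory T (Treg) cell transcription factor, at 744 in Treg-like and 7.18 in other cells. Naive CD8-like cells carried the node-homing gene Ccr7 at 471 CPM, against 58.9 in other cells. CD4 conventional-like cells carried Cd4 at 504 and the CD40 ligand gene Cd40lg at 321, against 79.2 and 67.1 in other cells. Markers of myeloid, B and γδ T cells were low. The 23 myeloid genes together had 84.9 and 216 CPM in RT D1 and 157 and 218 in NT D1, with S100a8, S100a9 and Flt3 at 0 in each pool. The 12 B cell genes together had 77.4 and 105 in RT D1 and 123 and 89.1 in NT D1. The 7 measured γδ T cell genes had 29.5 and 10.4 in RT D1 and 4.31 and 7.13 in NT D1, and Il17a accounted for most of the highest value, at 28.4 CPM in RT D1 replicate 1, 0.452 in replicate 2 and 0 in both NT D1 pools. No gene of these lists or of the natural killer (NK) cell list passed the test described below. A cluster of 201 cells in the series, left unnamed, was led by Klra7 and Klra1 and had 4 of 7 NK markers. A Cd8 gene was seen in 85.6% of its cells, and they stayed among all T cells. At Leiden resolution 2 a cluster of 49 cells led by Apoe, C1qa and Lyz2 had 5 of 8 myeloid markers. The part of such cells in the results was not tested.

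The shares of the 2 main classes did not differ between RT D1 and NT D1 beyond the spread of the pools. CD8-like cells made up 60.7% and 37.0% of RT D1 cells and 47.1% and 54.3% of NT D1 cells. Treg-like cells made up 15.7% and 28.2% of RT D1 cells and 26.7% and 21.0% of NT D1 cells. In both classes the RT D1 pools lay on either side of the NT D1 pools (exact permutation p = 1 for each, 2-sided, n = 2 pools each). The difference in CD8-like share was −1.83 percentage points, and it was −13.65 without RT D1 replicate 1 and 9.98 without RT D1 replicate 2.

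CD4 conventional-like cells were the class whose pools did not overlap, at 15.7% and 18.04% of RT D1 cells against 14.9% and 9.58% of NT D1 cells. Their difference of 4.63 points had the smallest p the design allows (exact permutation p = 0.333), and was 1.95 points without NT D1 replicate 2. Naive CD8-like cells made up 3.93% and 8.45% of RT D1 cells and 5.88% and 7.37% of NT D1 cells. Naive CD4-like cells were few at Leiden resolution 1, at 0.562% and 2.69% of RT D1 cells and 0.905% and 2.21% of NT D1 cells. Their expression was not tested. A cluster of 269 cells in the series, with Gm14718 and Cd40lg among its leading genes, was named CD4 conventional-like there. At resolution 2 a cluster of 163 cells led by these genes was named naive CD4-like. The split of the CD4 classes thus depends on the clustering, and shares were not recounted at resolution 2. The naive pools overlapped in both classes (exact permutation p = 1 each). Cells of the cluster left unnamed made up 3.37% and 5.57% of RT D1 cells and 4.52% and 5.52% of NT D1 cells.

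**Figure D1:**
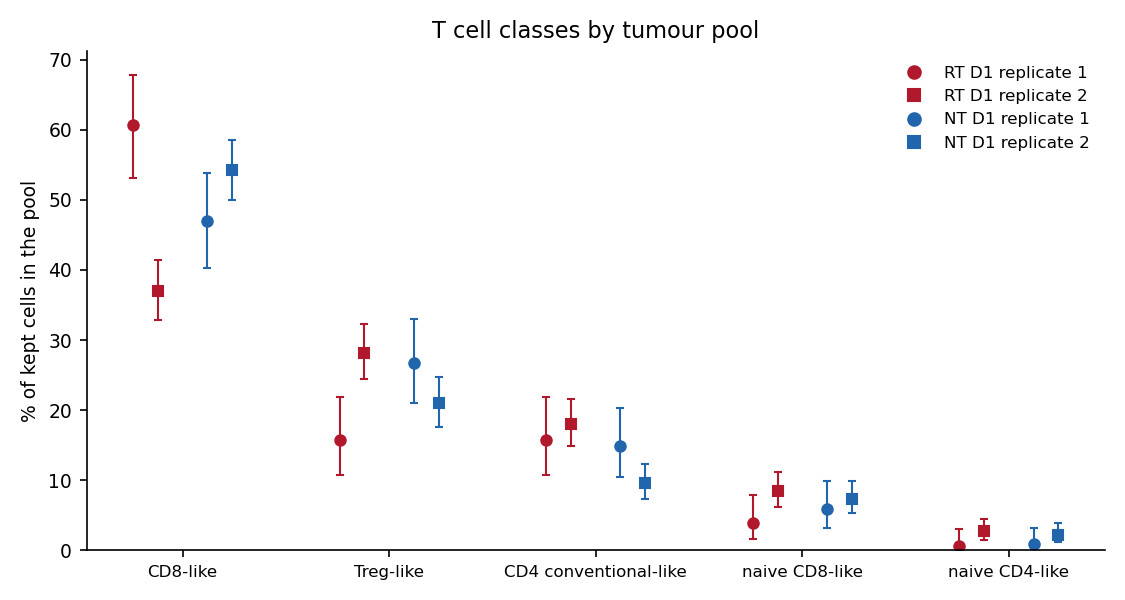
Share of each T cell class among the kept cells of a pool (y axis, %), with RT D1 pools left of NT D1 pools, circles for replicate 1 and squares for replicate 2. Bars are exact 95% binomial intervals and cover counting error only; the RT D1 pools straddle the NT D1 pools for CD8-like cells (60.7% and 37.0% against 47.1% and 54.3%) and lie above them for CD4 conventional-like cells.

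Gene expression did differ. T cells of irradiated tumours had more transcripts of a number of p53 targets and interferon-stimulated genes, and fewer of genes of mitosis. Counts were summed per pool and tested with edgeR's quasi-likelihood test, with Benjamini-Hochberg adjustment at 0.05. In all T cells 45 genes were higher and 25 lower in RT D1 among 12428 tested, which is 0.563% of genes called (0.362% higher and 0.201% lower). Of the 45 higher genes, 10 were p53 targets and 18 belonged to the interferon lists, and of the 25 lower genes 16 belonged to the lists of S phase and of G2 and mitosis. At an unadjusted p below 0.05, 1186 genes differed (9.54%). The count of 70 was 21 and 17 without replicate 1 and without replicate 2 of RT D1, and 14 and 82 without replicate 1 and without replicate 2 of NT D1. All 70 genes kept their direction in each of these 4 fits. None of the 4 kept all of the 70 calls, and each called other genes as well, so the counts overstate how far the calls agree. With the replicate as a block 69 genes passed, and 53 of them were among the 70. Without the 3 clusters led by the genes H2ac4, Trim30c and Cox6b2 no gene passed, and 64 of 69 genes kept their direction. The called p53 targets had a median log2 fold change of 0.95 there, against 1.36 with all cells, and the called type I interferon genes 0.53, against 0.64. The called genes of G2 and mitosis had a median of −0.059 there, against −1.50 with all cells. That alternative by construction leaves out the cells richest in histone, interferon and p53 target transcripts.

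**Figure D2:**
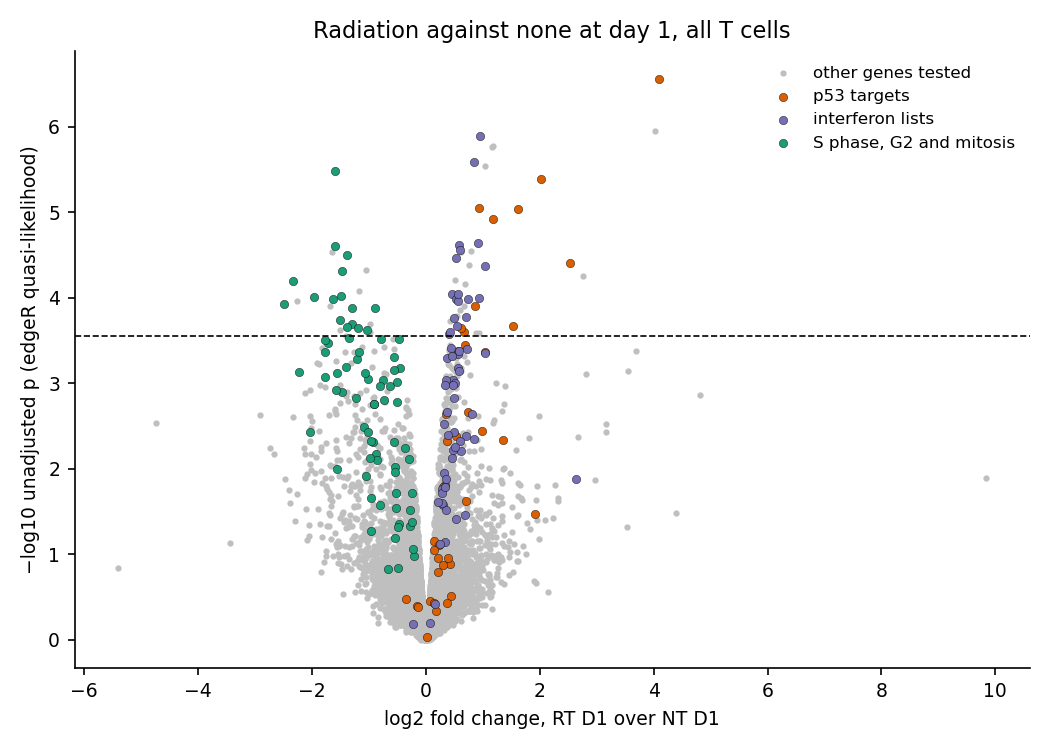
Log2 fold change of RT D1 over NT D1 (x axis) and −log10 of the unadjusted edgeR p (y axis) for the 12428 genes tested in all T cells, with the dashed line at the least significant gene that passed. The p53 targets (orange) and interferon genes (purple) that passed lie to the right and the cell cycle genes (green) that passed to the left.

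Phlda3 and other p53 targets were among the largest rises. Of 45 listed, 40 were tested, 10 rose, none fell, and 37 had a positive log2 fold change. The median over the tested members was 0.44, against 0.00 over all genes tested, of which 6212 were positive and 6216 negative. Summed over the list, the level was 2851 and 2780 CPM in RT D1 and 2039 and 1954 in NT D1. Phlda3, which encodes a p53-induced repressor of the survival kinase Akt, had 31.96 and 23.97 CPM in the RT D1 pools, against 1.56 and 1.64 CPM in the NT D1 pools. The groups were far apart, in both replicates (log2 fold change 4.09 ± 0.25 (SE), edgeR adjusted p = 0.00343). Cdkn1a, the p21 cell cycle inhibitor, had 121 and 132 CPM in the RT D1 pools, against 25.1 and 35.9 CPM in the NT D1 pools. Each RT D1 pool stood above each NT D1 pool (log2 fold change 2.02 ± 0.18 (SE), edgeR adjusted p = 0.00563). Psrc1, a spindle protein gene induced by p53, had 18.6 and 15.6 CPM in the RT D1 pools, against 1.91 and 3.58 CPM in the NT D1 pools, also without overlap (log2 fold change 2.52 ± 0.31 (SE), edgeR adjusted p = 0.0221).

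Genes of apoptosis and feedback had smaller fold changes. Bbc3, which encodes the pro-apoptotic protein PUMA, had 28.4 and 23.2 CPM in the RT D1 pools, against 6.24 and 10.6 CPM in the NT D1 pools (log2 fold change 1.54 ± 0.24 (SE), edgeR adjusted p = 0.0471). Bax, which permeabilises the outer mitochondrial membrane, had 292 and 246 CPM in the RT D1 pools, against 136 and 144 CPM in the NT D1 pools (log2 fold change 0.93 ± 0.09 (SE), edgeR adjusted p = 0.0104). Both genes separated the groups, Bbc3 from a low level and Bax from a high one. Ccng1, which encodes cyclin G1, a regulator of Mdm2, had 233 and 200.2 CPM in the RT D1 pools, against 106 and 84.97 CPM in the NT D1 pools (log2 fold change 1.19 ± 0.12 (SE), edgeR adjusted p = 0.0124). The death receptor gene Fas rose by a log2 fold change of 0.62 ± 0.10 (edgeR adjusted p = 0.0471), Trp53inp1, a cofactor of p53, by 0.67 ± 0.11 (edgeR adjusted p = 0.0482), and Dcxr, a xylulose reductase gene, by 1.62 ± 0.16 (edgeR adjusted p = 0.0104). Pvt1, a long noncoding RNA gene next to Myc, completed the 10 (0.87 ± 0.12, edgeR adjusted p = 0.0347). Mdm2, the p53 ubiquitin ligase, had 92.4 and 84.6 CPM in the RT D1 pools, against 67.7 and 69.5 CPM in the NT D1 pools and did not pass (log2 fold change 0.36 ± 0.08 (SE), edgeR adjusted p = 0.134). Its relative Mdm4, which was not on the list, rose by 0.61 ± 0.07 (edgeR adjusted p = 0.0193). Of these, Phlda3, Cdkn1a and Ccng1 passed in each of the 4 fits without 1 day 1 pool, and Bax in 3 of them. Fas, Trp53inp1 and Mdm4 passed in none of them, Psrc1 and Bbc3 in 1 and Dcxr in 2. With the replicate as a block, Pvt1, Bbc3, Fas and Trp53inp1 lost their calls (edgeR adjusted p = 0.0518, 0.0649, 0.0683 and 0.0645). Without RT D1 replicate 1, Psrc1, Pvt1, Bbc3, Fas and Trp53inp1 lost theirs (edgeR adjusted p = 0.0596, 0.0596, 0.128, 0.151 and 0.0596), and the other 5 targets passed.

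Promoters of the p53 targets with the smallest adjusted p are shown from RefSeq on GRCm38.p6, from 250 bases before to 50 after the start, 5′ to 3′. Capitals mark a match to the p53 element.
Phlda3, chr1:135765835-135766134, plus strand: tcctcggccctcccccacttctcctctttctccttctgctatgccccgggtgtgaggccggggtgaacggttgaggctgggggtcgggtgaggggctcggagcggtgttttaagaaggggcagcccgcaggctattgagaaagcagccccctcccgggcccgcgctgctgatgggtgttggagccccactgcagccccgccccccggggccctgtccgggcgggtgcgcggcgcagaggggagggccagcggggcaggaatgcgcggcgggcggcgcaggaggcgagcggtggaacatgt
Cdkn1a, chr17:29090729-29091028, plus strand: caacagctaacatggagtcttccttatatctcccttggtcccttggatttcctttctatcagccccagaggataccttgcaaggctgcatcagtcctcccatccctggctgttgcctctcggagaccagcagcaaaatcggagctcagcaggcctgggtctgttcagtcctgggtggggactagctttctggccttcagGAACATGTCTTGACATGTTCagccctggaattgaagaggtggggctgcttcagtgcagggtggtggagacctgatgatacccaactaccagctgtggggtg
The p53 element was searched on the strand shown as a pair of adjacent half-sites, with the CNNG core of each fixed and up to 2 mismatches elsewhere. Its pattern reads the same on the other strand, so this search covers both. It was found in 0.326% of 32851 promoters. Of the 10 genes that rose, 8 were matched in the table, and 2 of them, Ccng1 and Cdkn1a, held it. Over the whole list 6 of 35 matched genes did. The Phlda3 window held 0 matches, which says only that these letters are not in these bases.

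**Figure D3:**
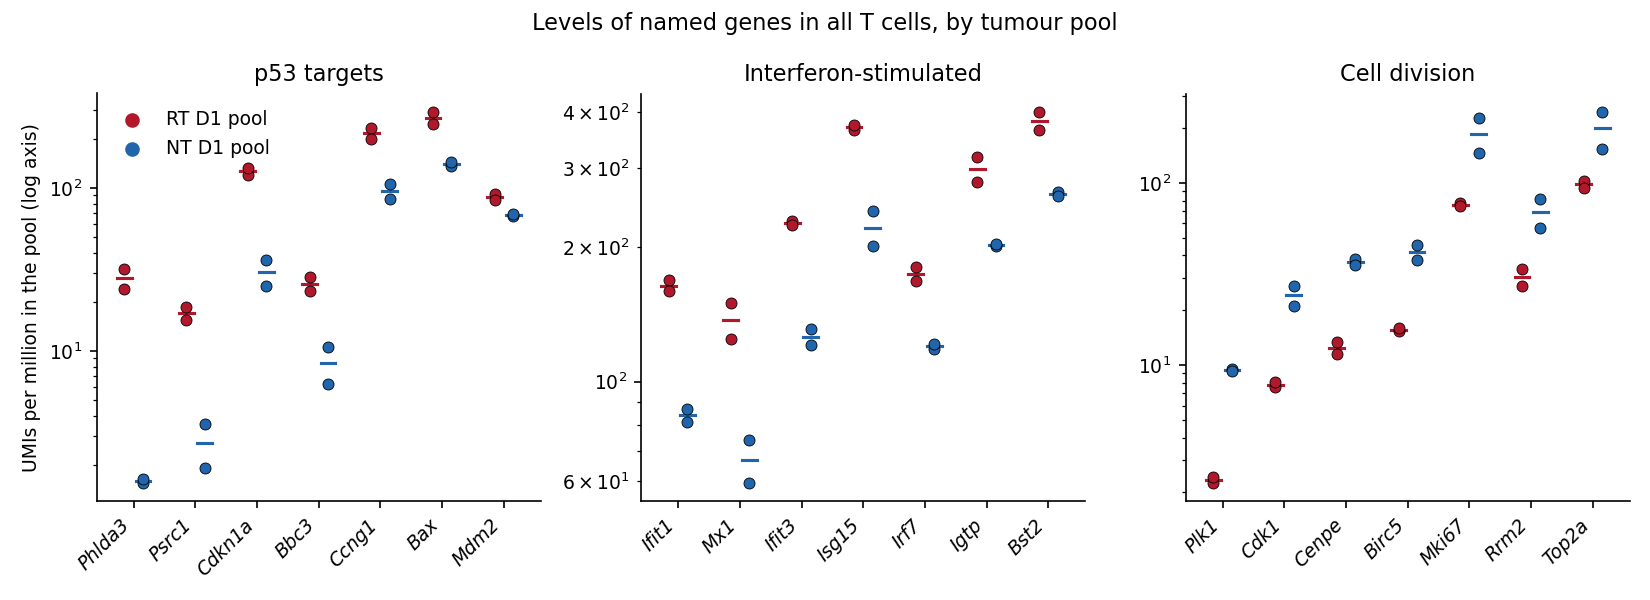
Levels in all T cells (CPM, log axis) of named p53 targets, interferon-stimulated genes and cell division genes, with RT D1 pools (red points) left of NT D1 pools (blue points) and a line at each mean of 2 pools. The groups do not overlap for any gene drawn, and the gap is widest for Phlda3 and Psrc1. All genes drawn but Mdm2 and Top2a had passed the test, so the lack of overlap adds no support.

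The p53 response was then counted per cell. Each cell was thinned to 5000 UMIs, which left out 14 and 18 cells of RT D1 and 8 and 15 of NT D1. Cells with at least 5 UMIs of Cdkn1a, Mdm2, Ccng1, Bax and Phlda3 together, a limit set after the data were seen, made up 31.7% and 27.0% of RT D1 cells and 6.10% and 3.98% of NT D1 cells. The RT D1 pools lay well above the NT D1 pools, with a mean of 29.4% ± 3.30 against 5.04% ± 1.503 (SD, n = 2 pools each; exact permutation of 2 against 2 pools cannot pass 0.333). Cells with at least 1 UMI of these genes made up 87.0% ± 5.48 of RT D1 cells and 75.2% ± 0.0509 of NT D1 cells at this depth, and 96.3% and 96.1% without thinning, where nearly all cells have 1. Cdkn1a itself was seen in 30.5% and 28.4% of RT D1 cells and 6.10% and 10.0% of NT D1 cells, and Phlda3 in 12.2% and 10.7% of RT D1 cells and 0.469% and 0.758% of NT D1 cells. Mean UMIs of the 5 genes per thinned cell were 4.08 ± 0.399 in RT D1 and 1.71 ± 0.0871 in NT D1. Cdkn1a, Ccng1, Bax and Phlda3 had already passed the test in these same pools. The separation of the groups here therefore adds no support and only describes how the transcripts were spread over cells.

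Within the irradiated pools, green cells were more often rich in p53 target transcripts than red cells. In RT D1 replicate 1 the share of cells with at least 5 UMIs was 45.7% of 35 green cells and 27.9% of 129 red cells. In RT D1 replicate 2 it was 44.8% of 221 green cells and 13.1% of 282 red cells. In NT D1 it was 2.27% of green and 8.80% of red cells in replicate 1 and 4.19% of green and 3.83% of red cells in replicate 2. The excess of green over red cells was seen in both RT D1 pools, while the 2 NT D1 pools pointed in opposite directions. Under the labels' tag numbers the 2 colours of replicate 2 are exchanged, and the RT D1 pools then point in opposite directions. As the matrices name them, the cluster led by Il2 held 11.2% and 9.28% of red and 2.86% and 1.30% of green RT D1 cells. In NT D1 it held 9.92% and 14.6% of red and 0 and 0.452% of green cells. The cluster led by Gzmf was green-weighted in each pool, and that led by Gzmk in all but RT D1 replicate 1. The labels' numbers reverse these orders in replicate 2. Which naming is right was not tested.

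CD8-like cells showed the same order, at 42.9% of green and 30.8% of red cells in RT D1 replicate 1 and 50% of green and 4.00% of red cells in replicate 2, against 0 to 5.39% in the 4 NT D1 hashed samples. In Treg-like cells the share was 56.8% of 37 green and 20.6% of 102 red cells in RT D1 replicate 2, and 40% of 5 green and 17.4% of 23 red cells in replicate 1, against 0 to 16.7% in NT D1. CD4 conventional-like cells ran from 29.4% to 50% in the RT D1 hashed samples and from 3.85% to 14.3% in NT D1, so the groups did not overlap in either colour. Among naive CD8-like cells, 47.1% of 17 green and 8.33% of 24 red cells of RT D1 replicate 2 reached the limit, against 0 of the naive CD8-like cells of NT D1 and of 5 red cells of RT D1 replicate 1. These small samples carry wide intervals: 0 of 29 red NT D1 cells allows up to 11.9% (exact 95% interval).

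**Figure D4:**
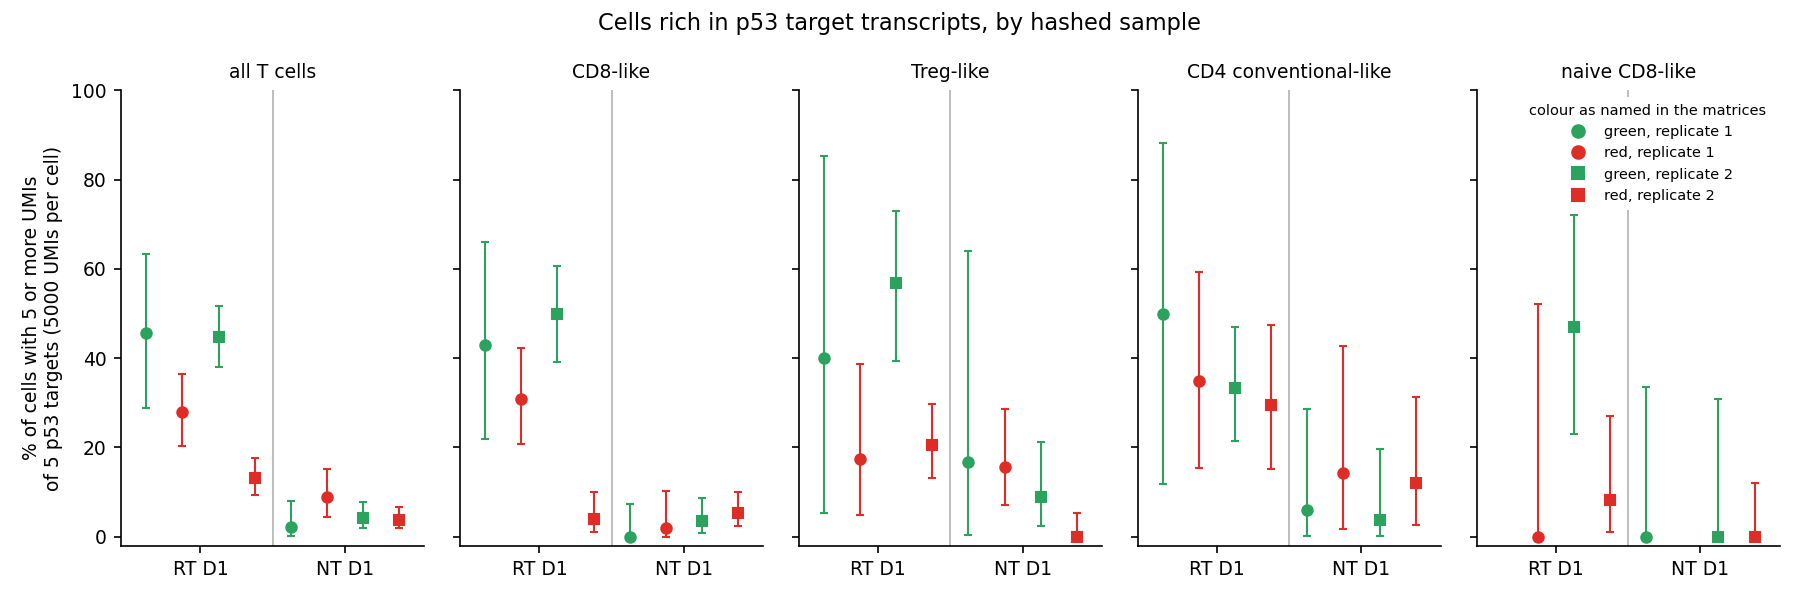
Share of cells (y axis, %) with at least 5 UMIs of 5 p53 targets after thinning to 5000 UMIs, per hashed sample, with RT D1 left of NT D1 in each class; colours are as the matrices name them, circles are replicate 1, squares replicate 2, and bars exact 95% binomial intervals. Green samples of RT D1 stand at 33.3% to 56.8% in the classes drawn, and NT D1 samples at 16.7% or below; naive CD8-like cells of RT D1 replicate 1 were red only.

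Tests of the colours did not settle the difference. In CD8-like cells, Cdkn1a stood at 163 and 156 CPM in green and 103 and 34.8 in red RT D1 cells, against 3.68 and 13.1 in green and 31.2 and 28.4 in red NT D1 cells. The radiation effect was smaller in red than in green cells by a log2 fold change of −2.81 ± 0.78 (SE), and this difference did not pass (edgeR adjusted p = 1.000). No gene passed for the difference between colours in CD8-like cells (453 of 10370 genes, 4.37%, at an unadjusted p below 0.05, and 0 by DESeq2). In green CD8-like cells alone 1 gene passed (0.00964% of those tested, and 9.94% at an unadjusted p below 0.05), the noncoding RNA host gene Snhg15, at a log2 fold change of 1.82, and its call was lost with the replicate as a block and with the label colours. Red CD8-like cells gave 0 calls by edgeR, 364 genes (3.51%) at an unadjusted p below 0.05 and 1 call by DESeq2. In green Treg-like cells 3 of 8786 genes rose (0.0341%, and 5.53% at an unadjusted p below 0.05), the exocyst gene Exoc4 at 1.92, the ribosomal protein gene Rps19 at 1.17 and Ccng1 at 2.18. A replicate block gave 5 calls, Trbv29 and Apoe in addition. None passed with the label colours. These sums rest on 5 and 6 green Treg-like cells in replicate 1 of RT D1 and NT D1. In red Treg-like cells Cd8a was the 1 gene that passed (0.0114%, and 4.04% at an unadjusted p below 0.05), lower by 5.63 on the log2 scale, and 3 passed with the block. The Treg-like colour difference had 0 calls by edgeR and by DESeq2 (366, or 4.17%, at an unadjusted p below 0.05), and 3 with the block, C1qb, Trbv29 and Apoe.

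Genes of the BCL2 family control mitochondrial apoptosis. Of 15 tested, Bax and Bbc3 rose, none fell and 11 were positive, with a median log2 fold change of 0.10. Bcl2, the anti-apoptotic founder of the family, had 455 and 421 CPM in the RT D1 pools, against 277 and 321 CPM in the NT D1 pools, and did not pass (log2 fold change 0.55 ± 0.10 (SE), edgeR adjusted p = 0.0746). Pmaip1, which encodes NOXA, had 42.5 and 36.4 CPM in the RT D1 pools, against 36.7 and 31.01 CPM in the NT D1 pools and overlapped (log2 fold change 0.22 ± 0.14 (SE), edgeR adjusted p = 0.721). Of 35 DNA repair genes none passed, 32 were negative and the median was −0.21. The lowest adjusted p among them was that of H2ax, the histone variant phosphorylated at breaks, with 41.3 and 38.2 CPM in the RT D1 pools, against 64.3 and 67.1 CPM in the NT D1 pools (log2 fold change −0.74 ± 0.12 (SE), edgeR adjusted p = 0.0566). Trp53, the p53 gene itself, had 122 and 127 CPM in the RT D1 pools, against 139 and 149 CPM in the NT D1 pools (log2 fold change −0.21 ± 0.08 (SE), edgeR adjusted p = 0.427).

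Interferon-stimulated genes were the most numerous listed genes among those that rose. Of 48 type I interferon-stimulated genes 46 were tested, 12 rose, none fell, 45 were positive and the median was 0.51. Their summed level was 9707 and 10093 CPM in RT D1 and 7538 and 7276 in NT D1. Ifit1, which binds viral RNA that lacks a methylated cap, had 168 and 159 CPM in the RT D1 pools, against 81.4 and 86.8 CPM in the NT D1 pools. The pools of a group were close to each other and the groups apart (log2 fold change 0.96 ± 0.07 (SE), edgeR adjusted p = 0.00425). Mx1, an antiviral dynamin-like GTPase, had 149 and 125 CPM in the RT D1 pools, against 73.96 and 59.6 CPM in the NT D1 pools (log2 fold change 1.04 ± 0.13 (SE), edgeR adjusted p = 0.0223). Isg15, a ubiquitin-like modifier, had 365 and 374 CPM in the RT D1 pools, against 240.1 and 201 CPM in the NT D1 pools (log2 fold change 0.75 ± 0.10 (SE), edgeR adjusted p = 0.0330). Irf7, the transcription factor that amplifies the response, had 168 and 180.3 CPM in the RT D1 pools, against 118 and 121 CPM in the NT D1 pools (log2 fold change 0.54 ± 0.07 (SE), edgeR adjusted p = 0.0330). None of these groups overlapped. Ifit3 rose by 0.85 ± 0.07 (edgeR adjusted p = 0.00510) and its near copy Ifit3b by 0.91 ± 0.10 (edgeR adjusted p = 0.0193), where reads can be split between the copies.

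Other interferon-stimulated genes that rose included Bst2, which tethers budding virus, with 365 and 399.7 CPM in the RT D1 pools, against 265 and 259.7 CPM in the NT D1 pools (log2 fold change 0.54 ± 0.08 (SE), edgeR adjusted p = 0.0471), and Rtp4, with 124 and 147 CPM in the RT D1 pools, against 84.01 and 82.1 CPM in the NT D1 pools (log2 fold change 0.71 ± 0.11 (SE), edgeR adjusted p = 0.0418). Trim30a, Xaf1, Slfn8 and Lgals3bp made up the 12, at log2 fold changes of 0.53, 0.57, 0.50 and 0.43. Ifit1 and Ifit3 passed in each of the 4 fits without 1 day 1 pool, Mx1 in 2 and Isg15, Irf7 and Bst2 in none. Without RT D1 replicate 1, 9 of the 12 no longer passed. Mx1, Irf7, Isg15 and Bst2 were among them (edgeR adjusted p = 0.0571, 0.0581, 0.0759 and 0.0688), as were Ifit3b, Trim30a, Xaf1, Slfn8 and Lgals3bp (edgeR adjusted p = 0.0571, 0.0608, 0.0739, 0.126 and 0.140), while Ifit1, Ifit3 and Rtp4 passed. With the replicate as a block Lgals3bp did not pass (edgeR adjusted p = 0.0518).

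Some interferon-γ-inducible GTPase genes, whose products attack the vacuoles of intracellular pathogens, rose as well. Of 16 tested, 6 rose, all 16 were positive and the median was 0.48. Iigp1 had 111 and 126 CPM in the RT D1 pools, against 54.4 and 68.3 CPM in the NT D1 pools (log2 fold change 0.94 ± 0.13 (SE), edgeR adjusted p = 0.0330). Igtp had 279.6 and 317 CPM in the RT D1 pools, against 200.4 and 203 CPM in the NT D1 pools (log2 fold change 0.57 ± 0.08 (SE), edgeR adjusted p = 0.0336). The groups were apart for both. Gbp4, Gbp9, Gbp6 and Gbp7 were the other 4, at 0.60, 0.58, 0.47 and 0.41, and reads can be split between the near-identical members of this family. Without RT D1 replicate 1 the call held for Igtp (edgeR adjusted p = 0.0401) and was lost for Iigp1 (0.0571) and the 4 Gbp genes, and with the replicate as a block it was lost for Gbp7 (edgeR adjusted p = 0.0518). Lilrb4a, an inhibitory immunoglobulin-like receptor gene, had 83.6 and 78.3 CPM in the RT D1 pools, against 34.99 and 36.4 CPM in the NT D1 pools (log2 fold change 1.17 ± 0.09 (SE), edgeR adjusted p = 0.00425), and its near copy Lilrb4b had a log2 fold change of 1.16 ± 0.09. The list of MHC class I presentation had 19 of 21 positive members, a median of 0.12 and no call. B2m, its shared light chain, had 4284 and 4483 CPM in the RT D1 pools, against 3979.7 and 4163 CPM in the NT D1 pools (log2 fold change 0.11 ± 0.07 (SE), edgeR adjusted p = 0.707).

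The promoters of Ifit1 and Ifit3, the type I genes with the smallest adjusted p, are shown from the same RefSeq table, with capitals on matches to the ISRE core.
Ifit1, chr19:34640639-34640938, plus strand: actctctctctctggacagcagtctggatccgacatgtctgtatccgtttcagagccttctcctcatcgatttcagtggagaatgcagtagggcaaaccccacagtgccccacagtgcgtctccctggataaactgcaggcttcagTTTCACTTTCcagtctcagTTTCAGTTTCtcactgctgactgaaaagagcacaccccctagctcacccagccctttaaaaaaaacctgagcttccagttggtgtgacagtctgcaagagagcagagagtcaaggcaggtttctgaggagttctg
Ifit3, chr19:34583279-34583578, plus strand: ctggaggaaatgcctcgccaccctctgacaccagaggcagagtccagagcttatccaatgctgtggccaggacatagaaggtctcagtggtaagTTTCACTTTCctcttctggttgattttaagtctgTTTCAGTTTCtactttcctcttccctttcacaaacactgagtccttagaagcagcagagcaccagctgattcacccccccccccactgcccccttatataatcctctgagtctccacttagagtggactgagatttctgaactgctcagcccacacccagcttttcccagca
The core was searched on both strands as GAAA, any 2 bases and GAAA again, and both promoters hold 2 copies, read on the other strand. It was found in 3.44% of 32851 promoters, in 7 of 10 matched type I genes that rose, in 18 of 34 matched genes of the whole list, and in Gbp7 and Igtp, the 2 matched GTPase genes that rose. Overlapping matches were counted as they came, and a match is a description of the sequence and not a measured site.

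Genes of cell division made up most of the genes that fell. All 40 genes of the G2 and mitosis list were tested, 14 fell, none rose, all 40 were negative and the median was −1.39. Their summed level was 537 and 524 CPM in RT D1 and 1408 and 1083 in NT D1. Cenpe, the kinetochore motor that aligns chromosomes, had 13.3 and 11.5 CPM in the RT D1 pools, against 38.3 and 35.4 CPM in the NT D1 pools. Both RT D1 pools lay below both NT D1 pools (log2 fold change −1.59 ± 0.14 (SE), edgeR adjusted p = 0.00510). Cdk1, the kinase that drives entry into mitosis, had 7.55 and 8.05 CPM in the RT D1 pools, against 27.2 and 21.1 CPM in the NT D1 pools (log2 fold change −1.60 ± 0.18 (SE), edgeR adjusted p = 0.0193). Plk1, a kinase of spindle assembly, had 2.27 and 2.44 CPM in the RT D1 pools, against 9.53 and 9.24 CPM in the NT D1 pools (log2 fold change −1.97 ± 0.27 (SE), edgeR adjusted p = 0.0330). None of these overlapped between groups. Birc5, which encodes the passenger protein survivin, had 15.4 and 16.01 CPM in the RT D1 pools, against 45.6 and 37.8 CPM in the NT D1 pools (log2 fold change −1.39 ± 0.16 (SE), edgeR adjusted p = 0.0197).

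Mki67, the proliferation antigen, had 77.5 and 74.3 CPM in the RT D1 pools, against 227 and 146 CPM in the NT D1 pools (log2 fold change −1.29 ± 0.19 (SE), edgeR adjusted p = 0.0354). NT D1 replicate 1 was the highest pool for Mki67 and for Top2a, the decatenating topoisomerase, which had 103 and 93.3 CPM in the RT D1 pools, against 245 and 153 CPM in the NT D1 pools and did not pass (log2 fold change −1.02 ± 0.20 (SE), edgeR adjusted p = 0.0791). Among the list's genes that fell, the largest log2 fold changes were those of Cenpf, a kinetochore protein, at −2.49 ± 0.35 and of the chromokinesin Kif4 at −2.33 ± 0.30 (edgeR adjusted p = 0.0347 and 0.0271). Esco2, the cohesin acetyltransferase of S phase, which was on no list, fell by 2.26 on the log2 scale (edgeR adjusted p = 0.0336). Aspm, a spindle pole gene, and Spc24, a kinetochore gene, fell as well, at −1.68 ± 0.24 and −1.65 ± 0.19 (edgeR adjusted p = 0.0347 and 0.0193), and each passed in 1 of the 4 fits without 1 day 1 pool. Cenpe passed in 3 of the 4 fits without 1 day 1 pool, Mki67 in 2, Cdk1, Birc5 and Kif4 in 1, and Plk1, Cenpf and Esco2 in none. Without RT D1 replicate 1, 12 of the 14 did not pass, and Cenpe and Ccna2, the cyclin A2 gene, did. Lost were Cdk1, Birc5, Plk1, Mki67, Cenpf and Kif4 (edgeR adjusted p = 0.0571, 0.0596, 0.0987, 0.105, 0.0999 and 0.0739) and Knl1, Cdca8, Bub1, Cdca3, Tacc3 and Kif11 (edgeR adjusted p = 0.0669, 0.0649, 0.126, 0.126, 0.126 and 0.136). With the replicate as a block Cdca8, Bub1, Cdca3, Kif11 and Tacc3 lost their calls (edgeR adjusted p = 0.0508, 0.0570, 0.0503, 0.0721 and 0.0570). Without the 3 clusters named above, Cenpe, Cdk1, Birc5 and Kif4 had log2 fold changes of −0.17, −0.0062, −0.21 and −0.14. Those of Plk1, Knl1, Ccna2, Mki67, Bub1 and Top2a were above 0 there, at 0.54, 0.14, 0.28, 0.07, 0.024 and 0.13. The share of thinned cells with a UMI of Mki67 or Top2a was 31.2% ± 5.04 in RT D1 and 32.5% ± 7.14 in NT D1 (SD, n = 2 pools each), a difference of −1.32 points.

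Genes of DNA replication had smaller fold changes. Of 35 S phase genes, 2 fell, all 35 were negative and the median was −0.54. Rrm2, the inducible subunit of ribonucleotide reductase, had 33.7 and 27.2 CPM in the RT D1 pools, against 81.6 and 56.9 CPM in the NT D1 pools (log2 fold change −1.19 ± 0.19 (SE), edgeR adjusted p = 0.0473), and Uhrf1, which guides maintenance methylation of DNA, had 29.9 and 27.04 CPM in the RT D1 pools, against 58.5 and 47.6 CPM in the NT D1 pools (log2 fold change −0.90 ± 0.13 (SE), edgeR adjusted p = 0.0354). Both were apart between groups, and neither passed without RT D1 replicate 1 (edgeR adjusted p = 0.0739 and 0.0743). Pcna, the replication clamp, had 177 and 176 CPM in the RT D1 pools, against 261 and 225 CPM in the NT D1 pools and did not pass (log2 fold change −0.46 ± 0.08 (SE), edgeR adjusted p = 0.0697). Of 33 replication-dependent histone genes none passed and 32 were negative, with a median of −1.36. Their summed level was 823 and 796 CPM in RT D1 and 2499.8 and 1179.7 in NT D1, so the NT D1 pools differed from each other by more than the lower of them did from RT D1.

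The promoters of Cenpe and Cdk1, the mitosis genes with the smallest adjusted p, are shown in the same way, with capitals on matches to the CHR core.
Cenpe, chr3:135212313-135212612, plus strand: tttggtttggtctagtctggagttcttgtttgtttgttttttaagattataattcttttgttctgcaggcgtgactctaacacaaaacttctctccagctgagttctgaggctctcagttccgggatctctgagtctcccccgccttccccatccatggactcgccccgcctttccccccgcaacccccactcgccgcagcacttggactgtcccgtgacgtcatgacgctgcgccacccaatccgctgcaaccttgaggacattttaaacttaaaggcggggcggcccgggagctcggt
Cdk1, chr10:69352863-69353162, minus strand: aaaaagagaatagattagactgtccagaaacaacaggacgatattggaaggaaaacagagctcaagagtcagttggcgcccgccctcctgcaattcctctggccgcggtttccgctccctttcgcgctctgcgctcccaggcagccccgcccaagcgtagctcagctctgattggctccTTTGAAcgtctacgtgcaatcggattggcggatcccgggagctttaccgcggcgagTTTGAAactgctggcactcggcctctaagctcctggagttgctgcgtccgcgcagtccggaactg
The core was searched as TTTGAA on both strands. It was found in 17.9% of 32851 promoters, in 9 of 13 matched mitosis genes that fell and in 28 of 35 matched genes of the whole list. The Cdk1 window held 2 matches and the Cenpe window 0, which says only that these letters are not in those bases.

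CD8-like cells, the largest class, showed the same 3 gene groups. At an unadjusted p below 0.05, 1001 genes differed there (9.14%). Of 10950 genes tested in 301 RT D1 and 399 NT D1 cells, 18 rose and 7 fell, which is 0.228% (0.164% higher and 0.0639% lower). Of these 25, 16 were also among the 70 of all T cells, which contain the CD8-like cells. Phlda3 had 34.1 and 20.999 CPM in the RT D1 pools, against 1.65 and 1.75 CPM in the NT D1 pools (log2 fold change 3.96 ± 0.36 (SE), edgeR adjusted p = 0.0142). Cdkn1a had 113 and 84.6 CPM in the RT D1 pools, against 18.8 and 21.9 CPM in the NT D1 pools (log2 fold change 2.24 ± 0.25 (SE), edgeR adjusted p = 0.0190). Ccng1 and Bax rose by 1.32 ± 0.16 and 1.03 ± 0.12, which made 4 of 39 p53 targets, with a list median of 0.52 against 0.01 over all genes tested. Of 46 type I interferon genes 5 rose and 44 were positive, with a median of 0.62. Mx1 had 177 and 176 CPM in the RT D1 pools, against 79.6 and 60.01 CPM in the NT D1 pools (log2 fold change 1.36 ± 0.14 (SE), edgeR adjusted p = 0.0142). Ifih1, which encodes the RNA sensor MDA5, had 138 and 129.6 CPM in the RT D1 pools, against 80.9 and 67.8 CPM in the NT D1 pools (log2 fold change 0.86 ± 0.12 (SE), edgeR adjusted p = 0.0486). Rsad2, which encodes viperin, rose by 0.96 ± 0.14, and stood at −0.08 without the 3 clusters. In each of these genes the pools of the groups did not overlap.

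Of 40 G2 and mitosis genes 4 fell in CD8-like cells and all 40 were negative, with a median of −1.39. Cenpe had 16.03 and 11.7 CPM in the RT D1 pools, against 55.9 and 44.8 CPM in the NT D1 pools (log2 fold change −1.89 ± 0.19 (SE), edgeR adjusted p = 0.0142), and Ube2c, the ubiquitin-conjugating enzyme of the anaphase-promoting complex, had 12.02 and 15.5 CPM in the RT D1 pools, against 38.2 and 58.01 CPM in the NT D1 pools (log2 fold change −1.80 ± 0.23 (SE), edgeR adjusted p = 0.0326). Cdk1 and Cdca8 fell by 1.59 and 1.79 on the log2 scale, and Cdk1 stood at 0.49 without the 3 clusters. Of genes on T cell function, Il2, the growth factor gene of activated T cells, had 358 and 384 CPM in the RT D1 pools, against 101 and 152 CPM in the NT D1 pools. Both RT D1 pools were above both NT D1 pools (log2 fold change 1.53 ± 0.19 (SE), edgeR adjusted p = 0.0250). Il2 was also the 1 gene that passed without the 3 clusters (edgeR adjusted p = 0.0237). Cd274, which encodes the inhibitory ligand PD-L1, had 139 and 125 CPM in the RT D1 pools, against 72.1 and 62.8 CPM in the NT D1 pools (log2 fold change 0.97 ± 0.14 (SE), edgeR adjusted p = 0.0486). Ifng, which encodes interferon-γ, had 4385 and 4999 CPM in the RT D1 pools, against 2219.6 and 3531 CPM in the NT D1 pools and did not pass (log2 fold change 0.71 ± 0.33 (SE), edgeR adjusted p = 0.598). Gzmb, the granzyme B gene, had 1283 and 1916 CPM in the RT D1 pools, against 875 and 919.6 CPM in the NT D1 pools, also short of the threshold (log2 fold change 0.84 ± 0.18 (SE), edgeR adjusted p = 0.160).

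The calls in CD8-like cells rest on all 4 pools, and no fit without 1 of them kept most of the 25 calls. Their number was 7 and 5 without replicate 1 and replicate 2 of RT D1, and 2 and 15 without replicate 1 and replicate 2 of NT D1. Phlda3, Cenpe and Mx1 passed in 2 of these 4 fits, Ifit1, Bax, Ccng1, Il2 and Ube2c in 1, and Cdkn1a, Cd274, Rsad2 and Ifih1 in none. Of the 25 genes, Phlda3, Cenpe, Ifit1 and Ifit3 passed without RT D1 replicate 1, and the other 21 did not (edgeR adjusted p = 0.0613 to 0.133). With the replicate as a block Ifit3, Cdk1, Cdca8, Ifih1, Rsad2 and Cd274 lost their calls (edgeR adjusted p = 0.0636, 0.0723, 0.0686, 0.0672, 0.0672 and 0.0672). Of receptor segments, Trbv26 was lower, with 46.5 and 53.9 CPM in the RT D1 pools, against 119 and 109 CPM in the NT D1 pools (log2 fold change −1.17 ± 0.12 (SE), edgeR adjusted p = 0.0142). By assembled receptors, TRBV26 was carried by 4.29% and 4.02% of RT D1 cells with a beta chain and by 6.76% and 6.05% of NT D1 cells, counted over all T cells and not over CD8-like cells alone. Trav7-6 was called lower on 2 UMIs in RT D1 and 144 in NT D1, a ratio of 0.0209 (0.00251 to 0.0769, counting error only). By assembled receptors, again over all T cells, it was carried by 1 and 1 RT D1 cells and by 1 and 3 NT D1 cells. The 3 clusters named above held different shares of CD8-like cells in the groups, which is a description only, since the genes that define them differ. The cluster led by Cox6b2 held 9.26% and 15.5% in RT D1, against 0 of 399 cells in NT D1 (up to 0.920%, exact 95% interval). That led by Trim30c held 8.33% and 8.29% in RT D1, against 2.88% and 2.37% in NT D1, and that led by H2ac4 2.78% and 2.59% in RT D1, against 11.5% and 5.76% in NT D1.

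In Treg-like cells (28 and 147 cells in RT D1, 59 and 114 in NT D1) edgeR called 0 of 9909 genes, with 519 at an unadjusted p below 0.05 (5.24%), and DESeq2 called 23. A fit with a replicate block called 2, the histone gene H4c4 and the segment Trav17, both lower. Without NT D1 replicate 2, 51 passed. Cdkn1a had 100.3 and 178 CPM in the RT D1 pools, against 42.8 and 83.8 CPM in the NT D1 pools (log2 fold change 1.16 ± 0.31 (SE), edgeR adjusted p = 0.391). Mki67 had 40.4 and 78.5 CPM in the RT D1 pools, against 270.2 and 161 CPM in the NT D1 pools (log2 fold change −1.73 ± 0.32 (SE), edgeR adjusted p = 0.191). Foxp3 had 659 and 847 CPM in the RT D1 pools, against 819 and 669 CPM in the NT D1 pools (log2 fold change 0.03 ± 0.16 (SE), edgeR adjusted p = 1.00). Ccr8, which encodes a receptor for the chemokine CCL1, had 270.2 and 417 CPM in the RT D1 pools, against 258 and 241 CPM in the NT D1 pools, and did not pass either (log2 fold change 0.49 ± 0.20 (SE), edgeR adjusted p = 0.879). Medians of the lists were 0.35 for p53 targets, 0.43 for type I interferon genes, −1.06 for S phase and −1.66 for G2 and mitosis, where all 38 tested members were negative.

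In CD4 conventional-like cells (28 and 94 cells in RT D1, 33 and 52 in NT D1) edgeR called 0 of 8257 genes, with 330 at an unadjusted p below 0.05 (4%), and DESeq2 called 8. The fit with a replicate block called 6, Cdkn1a (edgeR adjusted p = 0.0044), Ccng1, Exoc4, Trbv13-1 and the chemokine gene Ccl3 higher, and Ly6c1 lower. Cdkn1a had 225 and 243 CPM in the RT D1 pools, against 32.3 and 59.8 CPM in the NT D1 pools, the highest levels of any class in RT D1 (log2 fold change 2.28 ± 0.28 (SE), edgeR adjusted p = 0.0678). Phlda3 had 86 UMIs in RT D1 and 2 in NT D1, a ratio of 29.3 (7.86 to 246, counting error only). Ifng had 863 and 452 CPM in the RT D1 pools, against 169.7 and 183 CPM in the NT D1 pools (log2 fold change 1.87 ± 0.31 (SE), edgeR adjusted p = 0.171), and DESeq2 called it (adjusted p = 5.81e-05). The median of the p53 targets was 0.81, and 29 of 34 were positive. The median of type I interferon genes was −0.16, with 13 of 45 positive, and that of G2 and mitosis 0.09, over the 20 of 40 genes that were tested here. Isg15 had 296 and 422 CPM in the RT D1 pools, against 614 and 357 CPM in the NT D1 pools, with overlap (log2 fold change −0.40 ± 0.26 (SE), edgeR adjusted p = 0.999), and Mki67 had 91.1 and 87.9 CPM in the RT D1 pools, against 48.5 and 145 CPM in the NT D1 pools (log2 fold change −0.20 ± 0.39 (SE), edgeR adjusted p = 0.999).

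In naive CD8-like cells (7 and 44 cells in RT D1, 13 and 40 in NT D1) edgeR called 0 of 7142 genes, with 246 at an unadjusted p below 0.05 (3.44%), and DESeq2 called 0. Cdkn1a had 25.96 and 82.8 CPM in the RT D1 pools, against 14.8 and 5.32 CPM in the NT D1 pools (log2 fold change 2.92 ± 0.66 (SE), edgeR adjusted p = 0.314). Ccng1 had 90.9 and 155 CPM in the RT D1 pools, against 51.8 and 49.3 CPM in the NT D1 pools (log2 fold change 1.40 ± 0.32 (SE), edgeR adjusted p = 0.324). Of 25 p53 targets tested 19 were positive, with a median of 0.42, and of 43 type I interferon genes 39 were, with a median of 0.48. The node-homing gene Ccr7 (487 and 426 in RT D1 and 436 and 558 in NT D1 CPM) overlapped between groups. Blocking on the replicate gave 5 calls, the interferon-induced chemokine gene Cxcl10 higher (195 and 63.8 in RT D1 and 22.2 and 5.32 in NT D1 CPM) and Trbv12-2, Trbv14, Trbv17 and the linker histone gene H1f5 lower.

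**Figure D5:**
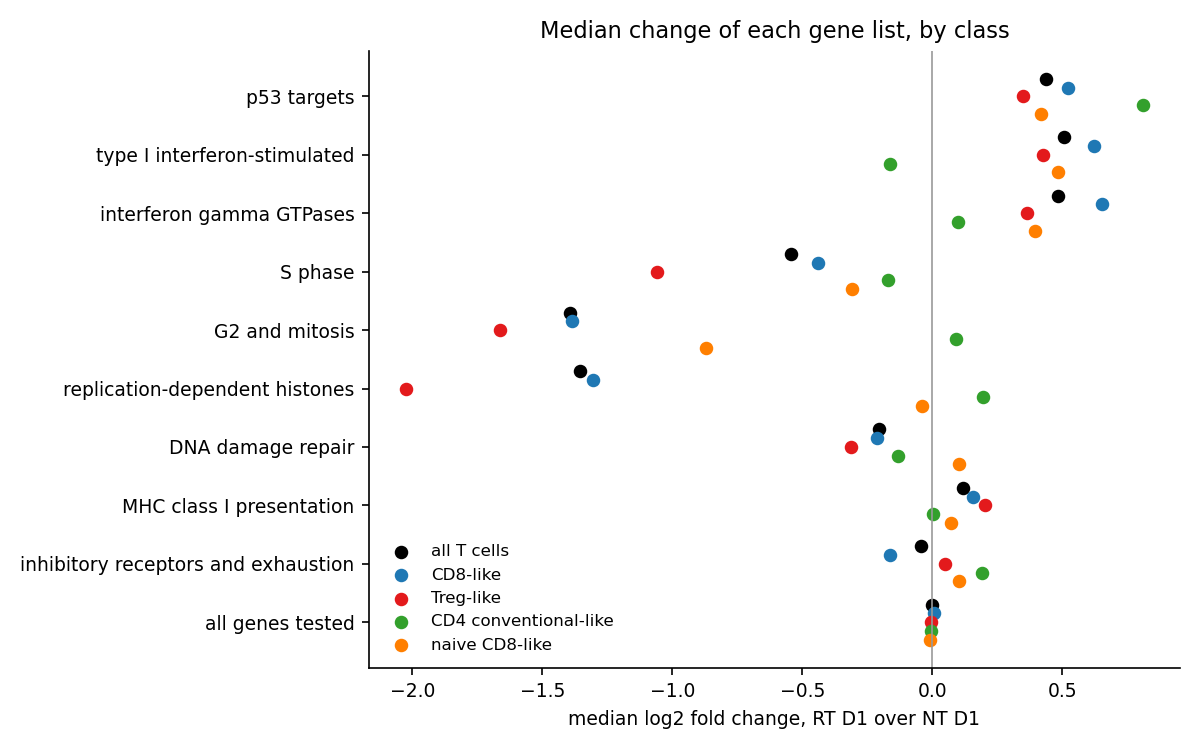
Median log2 fold change, RT D1 over NT D1 (x axis), of the tested genes of each list (rows), for all T cells and 4 classes (point colours). Medians of p53 targets lie at 0.35 to 0.81 in every set, while those of G2 and mitosis lie at −1.66 to −0.87 except in CD4 conventional-like cells (0.09). Of the 40 G2 and mitosis genes only 20 were tested in CD4 conventional-like cells and 7 in naive CD8-like cells, so these medians cover different genes.

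Differences between classes in the radiation effect were tested within pools. Between Treg-like and CD8-like cells 2 of 11197 genes passed (0.0179%, and 3.61% at an unadjusted p below 0.05), both with a lower effect in Treg-like cells. Cd8a, the CD8 coreceptor gene, had 0 and 1.00 CPM in RT D1 Treg-like cells and 36.6 and 49.0 in NT D1 Treg-like cells, against 1269.5 and 1035 in RT D1 CD8-like cells and 1003 and 1115 in NT D1 CD8-like cells. The difference of effects was −5.71 ± 0.69 (SE, edgeR adjusted p = 0.0367). The segment Trbv12-2 had 4.09 and 11.01 in RT D1 Treg-like cells and 80.0 and 40.6 in NT D1 Treg-like cells, against 24.3 and 217 in RT D1 and 53.3 and 49.5 in NT D1 CD8-like cells (−4.27 ± 0.53, edgeR adjusted p = 0.0367). Cd8a passed in 2 and Trbv12-2 in 3 of the 4 fits without 1 day 1 pool. Cdkn1a did not pass (−1.09 ± 0.42, edgeR adjusted p = 1.000).

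Between CD4 conventional-like and CD8-like cells 4 of 10690 genes passed (0.0374%, and 4.96% at an unadjusted p below 0.05). Ifih1 had 175 and 152 CPM in RT D1 and 318 and 245 in NT D1 CD4 conventional-like cells, against 143 and 135 in RT D1 and 83.7 and 70.6 in NT D1 CD8-like cells (difference of effects −1.63 ± 0.20, SE, edgeR adjusted p = 0.0153). Isg15 had 280.5 and 404 in RT D1 and 586 and 340.5 in NT D1 CD4 conventional-like cells, against 304 and 365 in RT D1 and 235 and 135 in NT D1 CD8-like cells (−1.29 ± 0.18, edgeR adjusted p = 0.0437). In CD8-like cells both genes were higher in RT D1, and in CD4 conventional-like cells Ifih1 was lower in both RT D1 pools. Without the 3 clusters these differences were −0.30 and −0.21 and did not pass. Nrgn, which encodes the calmodulin-binding protein neurogranin, had 289 and 70.7 in RT D1 and 21.2 and 44.4 in NT D1 CD4 conventional-like cells, against 75.5 and 28.2 in RT D1 and 107 and 164 in NT D1 CD8-like cells (3.66 ± 0.42, edgeR adjusted p = 0.0135). Trbv17 had 0 and 2 UMIs in RT D1 and 90 and 39 in NT D1 CD4 conventional-like cells, and passed (edgeR adjusted p = 0.0114). In CD8-like cells it had 1136 and 875 UMIs in RT D1 and 620 and 77 in NT D1. In NT D3, Trbv17 had 0 and 75 UMIs in CD4 conventional-like and 2 and 186 in CD8-like cells. Nrgn had 306 and 116 CPM in NT D3 CD4 conventional-like cells and 307 and 267 in NT D3 CD8-like cells. Naive CD8-like and CD8-like cells differed in 0 of 10466 genes by edgeR (346, or 3.31%, at an unadjusted p below 0.05) and 0 by DESeq2, a count that ran from 23 to 88 without 1 day 1 pool. The Cdkn1a effect in CD4 conventional-like cells differed from that in CD8-like cells by 0.07 ± 0.32 (edgeR adjusted p = 1.000).

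Genes of T cell function passed in few cases. None of 24 cytotoxic effector genes, 19 inhibitory receptor genes, 30 Treg genes, 21 chemokine and egress receptor genes or 23 naive and homing genes passed in all T cells, and the medians of these lists ran from −0.04 to 0.18. Gzmb had 1432 and 1583 CPM in the RT D1 pools, against 1002 and 960.0 CPM in the NT D1 pools and did not pass (log2 fold change 0.62 ± 0.12 (SE), edgeR adjusted p = 0.0712). Pdcd1, which encodes the inhibitory receptor PD-1, had 306 and 179 CPM in the RT D1 pools, against 223 and 287 CPM in the NT D1 pools, with overlap (log2 fold change −0.10 ± 0.23 (SE), edgeR adjusted p = 0.955). Of 27 cytokine and chemokine genes 23 were positive, with a median of 0.27 and no call, and Ifng had 2855 and 2225 CPM in the RT D1 pools, against 1191 and 2137 CPM in the NT D1 pools (log2 fold change 0.61 ± 0.41 (SE), edgeR adjusted p = 0.744). S1pr1, the receptor for egress into lymph, had 91.1 and 110.2 CPM in the RT D1 pools, against 117 and 78.3 CPM in the NT D1 pools (log2 fold change 0.07 ± 0.18 (SE), edgeR adjusted p = 0.959), and Tcf7, a transcription factor of stem-like T cells, had 153 and 186 CPM in the RT D1 pools, against 146 and 143 CPM in the NT D1 pools (log2 fold change 0.24 ± 0.16 (SE), edgeR adjusted p = 0.721).

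Some genes outside the lists were among the largest changes. Cox6b2, a testis isoform of a cytochrome c oxidase subunit, had 14.1 and 14.9 CPM in the RT D1 pools, against 0.866 and 0.894 CPM in the NT D1 pools (log2 fold change 4.02 ± 0.30 (SE), edgeR adjusted p = 0.00425). Serpine2, which encodes a serine protease inhibitor, had 46.1 and 22.5 CPM in the RT D1 pools, against 4.50 and 5.14 CPM in the NT D1 pools (log2 fold change 2.76 ± 0.35 (SE), edgeR adjusted p = 0.0255). Exoc4, an exocyst subunit gene, had 391 and 342 CPM in the RT D1 pools, against 187 and 168 CPM in the NT D1 pools (log2 fold change 1.04 ± 0.09 (SE), edgeR adjusted p = 0.00510). The groups were apart for all 3. Cox6b2, Exoc4, Lilrb4a and Lilrb4b passed in each of the 4 fits without 1 day 1 pool, and Serpine2 in 2. Ccnd2, which encodes the G1 cyclin D2, had 581 and 579.8 CPM in the RT D1 pools, against 440.0 and 422 CPM in the NT D1 pools (log2 fold change 0.43 ± 0.07 (SE), edgeR adjusted p = 0.0482).

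Clonal sharing did not separate the groups. Of all pairs of cells within a pool, the share with 1 TCR beta nucleotide sequence was 0.515% and 0.118% in RT D1 and 0.192% and 0.385% in NT D1. The pools interleaved (difference 0.0279 points, exact permutation p = 1, 2-sided, n = 2 pools each), and the difference was −0.171 points without RT D1 replicate 1 and 0.226 without RT D1 replicate 2. Cells in clones of 2 or more made up 27.6% and 28.1% of RT D1 cells with a beta chain and 22.2% and 40.2% of NT D1 cells. TRBV17 was carried by 17 of 163 and 9 of 473 RT D1 cells and by 7 of 207 and 4 of 512 NT D1 cells. Within a pool, the largest clone of NT D1 was of 20 cells in replicate 2, and the largest of RT D1 was of 8 cells in replicate 2 and 7 in replicate 1. Some beta sequences were found in both pools of a group. A TRBV20 sequence was carried by 21 NT D1 cells over both replicates, and a TRBV17 sequence by 8 RT D1 cells over both. A TRBV19 sequence, in 12 cells, was found in both groups. The tests take the pools as independent, and the cause of this sharing was not tested.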

How the data were processed

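T cells of 4 day 1 pools were measured by 10x 5′ single-cell RNA sequencing with hashtags and receptor libraries. The authors deposited raw UMI counts per gene and hashtag, made with Cell Ranger 8.0.1 on mm39 per the submitters' processing notes, and assembled receptor contigs. The members and gene lists were chosen with earlier results of these data known.

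Cells were clustered with scanpy 1.11.5 (2000 variable genes, 30 components, 15 neighbours, Leiden resolution 1) and named from at least 3 markers. Cells of 3 clusters led by H2ac4, Trim30c and Cox6b2 were given the class whose marker profile they matched best, a rule chosen after seeing the data that returned the own class of 93.6% of 2243 named cells. One cluster stayed unnamed. No doublet caller was run, and 52 cells (3.55%) carried 2 or more beta chains.

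Counts were summed per pool (at least 5 cells) and tested with edgeR 4.0.16 in R 4.3.3 (quasi-likelihood, filterByExpr, TMM, no block). The NT D3 pools of the same wells entered the fit for its spread only. Levels per pool are TMM-scaled CPM. Each fit has its own scaling factors, so a gene in the same pool can have slightly different levels in the tests of a class and of class differences. List sums and the levels of class markers are CPM without that scaling. Class differences kept the pool as a block. DESeq2 1.42.0 was an alternative. Tested on simulated data with 100 changes of each size, edgeR recovered 63% of 2-fold and 85% of 4-fold changes in all T cells. It recovered 57% and 86% in CD8-like cells and 41% and 86% in Treg-like cells. False calls were 13 among 12195 genes in all T cells, beside 63 and 85 recovered changes. They were 16 among 10762 in CD8-like cells, beside 57 and 86, and 25 among 9655 in Treg-like cells, beside 41 and 86. In each set, false calls thus made up a larger share of the calls than the threshold of 0.05 on adjusted p allows. Replicate numbers mark shared wells. Deviations of same-numbered pools correlated at 0.0124 (RT D1 and NT D1), 0.194 (RT D1 and NT D3) and 0.0404 (NT D1 and NT D3).

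Named genes are the 10 largest changes in each direction, list members that passed, the most abundant members and a list of key genes, and others were chosen after their values were seen. Some genes are not reported here. Intervals cover counting error only.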

Additional observations from a re-analysis of the deposited data

Results flagged for a closer look

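The radiation effect differed between classes for 6 genes, each by the test of the difference itself. Between Treg-like and CD8-like cells it differed by −4.271 on the log2 scale for the receptor segment Trbv12-2 and by −5.712 for Cd8a, a CD8 gene that NT D1 Treg-like cells carried at a low level and RT D1 Treg-like cells at or near 0. By assembled receptors, counted over all T cells, TRBV12-2 was carried by 2 and 21 RT D1 cells and by 6 and 13 NT D1 cells, and chains assigned to both TRBV12-2 and TRBV13-2 by 12 and 49 RT D1 cells and by 22 and 53 NT D1 cells.

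Between CD4 conventional-like and CD8-like cells the effect differed by −1.631 for Ifih1, −1.294 for Isg15, −8.578 for Trbv17 and 3.663 for Nrgn. The Trbv17 value is a fitted one, with 0 UMIs in 1 RT D1 pool, and is no bound. Trbv17 and Nrgn passed in each of the 4 fits without 1 day 1 pool, Ifih1 in 3 and Isg15 in 1. Without the clusters led by H2ac4, Trim30c and Cox6b2, Trbv17 passed (edgeR adjusted p = 0.0322), and Ifih1, Isg15 and Nrgn did not (edgeR adjusted p = 1, 1 and 0.0506). The cause of these differences was not tested.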

How the results depend on the processing

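Counts of called genes were 70 for all T cells, 25 for CD8-like cells, 0 for Treg-like cells, 0 for CD4 conventional-like cells, 0 for naive CD8-like cells, 1 for CD8-like green cells, 0 for CD8-like red cells, 0 for CD8-like red against green, 3 for Treg-like green cells, 1 for Treg-like red cells, 0 for Treg-like red against green, 2 for Treg-like against CD8-like difference, 4 for CD4 conventional-like against CD8-like difference and 0 for naive CD8-like against CD8-like difference. With DESeq2's Wald test, there were 177 for all T cells, 101 for CD8-like cells, 23 for Treg-like cells, 8 for CD4 conventional-like cells, 55 for CD8-like green cells, 1 for CD8-like red cells and 14 for CD4 conventional-like against CD8-like difference. Without the filter on low counts, there were 553 for all T cells, 492 for CD8-like cells, 211 for Treg-like cells, 110 for CD4 conventional-like cells, 32 for naive CD8-like cells, 394 for CD8-like green cells, 198 for CD8-like red cells, 116 for CD8-like red against green, 105 for Treg-like green cells, 133 for Treg-like red cells, 78 for Treg-like red against green, 94 for Treg-like against CD8-like difference, 130 for CD4 conventional-like against CD8-like difference and 47 for naive CD8-like against CD8-like difference. With the 4 day 1 pools only, there were 12 for all T cells, 1 for Treg-like cells, 0 for CD8-like green cells and 3 for naive CD8-like against CD8-like difference. With all 12 pools of the series, there were 11 for all T cells, 10 for CD8-like cells, 2 for Treg-like cells, 3 for CD8-like green cells, 0 for Treg-like red cells, 0 for Treg-like against CD8-like difference and 2 for naive CD8-like against CD8-like difference. With hashed samples as units, there were 35 for all T cells, 11 for CD8-like cells, 4 for Treg-like cells and 1 for CD4 conventional-like cells. Without the 3 clusters led by H2ac4, Trim30c and Cox6b2, there were 0 for all T cells, 1 for CD8-like cells, 1 for Treg-like cells, 1 for CD4 conventional-like cells, 2 for naive CD8-like cells, 2 for CD8-like green cells, 0 for Treg-like red cells, 1 for CD4 conventional-like against CD8-like difference and 5 for naive CD8-like against CD8-like difference. With DESeq2's size factors, there were 14 for CD8-like cells and 1 for naive CD8-like against CD8-like difference. Without cells with 2 beta chains, there were 16 for CD8-like cells, 0 for CD8-like green cells, 0 for Treg-like red cells and 0 for Treg-like against CD8-like difference. At up to 5% mitochondrial UMIs, there were 14 for CD8-like cells. With the replicate as a block, there were 2 for Treg-like cells, 6 for CD4 conventional-like cells, 5 for naive CD8-like cells, 0 for CD8-like green cells, 5 for Treg-like green cells, 3 for Treg-like red cells and 3 for Treg-like red against green. At Leiden resolution 2, there were 2 for Treg-like cells, 0 for Treg-like red cells, 0 for Treg-like against CD8-like difference, 8 for CD4 conventional-like against CD8-like difference and 1 for naive CD8-like against CD8-like difference. With the label colours, there were 0 for CD8-like green cells, 0 for Treg-like green cells and 2 for Treg-like red cells. With classes gated on Cd8a, Cd4 and Foxp3 transcripts, there were 0 for CD8-like green cells, 0 for Treg-like red cells and 1 for CD4 conventional-like against CD8-like difference. With at least 20 cells per sum, there were 0 for Treg-like green cells and 0 for Treg-like red cells. Leaving out 1 day 1 pool gave 14 to 82 for all T cells, 2 to 15 for CD8-like cells, 0 to 51 for Treg-like cells, 1 to 17 for CD4 conventional-like cells, 0 to 15 for naive CD8-like cells, 0 to 38 for CD8-like green cells, 0 to 11 for CD8-like red cells, 0 to 1 for CD8-like red against green, 0 to 2 for Treg-like green cells, 0 to 1 for Treg-like red cells, 0 to 1 for Treg-like red against green, 3 to 11 for Treg-like against CD8-like difference, 4 to 26 for CD4 conventional-like against CD8-like difference and 23 to 88 for naive CD8-like against CD8-like difference.

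In the other alternatives each count stayed within 1.5 times of the one above, but the genes called could differ. With the replicate as a block, 53 of the 70 calls in all T cells were among 69. With classes gated on transcripts, 18 of the 25 calls in CD8-like cells were among 33. The 70 genes called in all T cells kept their direction in each alternative but the one without the 3 clusters. That alternative by construction leaves out cells rich in histone, interferon and p53 target transcripts. There, among the named genes, log2 fold changes turned for Plk1 (0.54), Knl1 (0.14), Ccna2 (0.28), Bub1 (0.024), Mki67 (0.070) and Top2a (0.13) in all T cells and for Rsad2 (−0.083) and Cdk1 (0.49) in CD8-like cells. Over 92 named genes, 837 alternative values kept their call, 577 lost it, 7 gained one and 8 turned. The share of cells with a UMI of the 5 p53 targets was 11.8 points higher in RT D1 than in NT D1, 0.247 without thinning, and 24.3 at 5 UMIs, a limit chosen after seeing the data. Under the alternatives that kept all pools, the differences in class shares and in clonal sharing moved by less than the larger of the SDs between the pools of a group. Leaving out 1 of 2 pools always moves their mean by less than their SD. That alternative therefore cannot show whether these differences are stable. The replicate block, which compares pools of 1 well, changed no other call named in the report. For class differences no further block could be fitted, since the pool already is one. The naive CD4-like test, and with at least 20 cells per sum the naive CD8-like ones, could not be fitted. The causes of these differences were not tested. With 2 pools a group, 28 Treg-like cells in a pool and 7 naive CD8-like cells in another, depth limits what these classes can show.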
